A study of Solanum lycopersicum with 24 samples.

Results

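The vacuolar invertase gene VI of tomato (Solyc03g083910) was followed across 12 lists of N1-methyladenosine (m1A) peaks in mRNA. Every peak whose transcript identifier starts with Solyc03g083910 was taken, which gave 9 of the 3852 mRNA peaks, and VI was 1 of the 1945 genes with an mRNA peak in any list. The lists give this gene as the transcript Solyc03g083910.3.1 with no symbol, gene number or description, so the name VI rests on the identifier alone. VI was selected on these same lists, because its peak calls differed between genotypes, so its calls by genotype are a description and carry no test.

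Acid invertases split sucrose into glucose and fructose. The vacuolar form works inside the vacuole, where it helps set the balance of sucrose and hexoses in the flesh of the fruit, and in tomato it is known as a gene of ripening fruit. m1A is an adenosine with a methyl group at the N1 position, which lies on the edge that pairs with uridine, so the mark disturbs ordinary base pairing. In the assay, fragmented RNA was pulled down with an m1A antibody and sequenced, and a peak is a stretch that the authors' peak caller found enriched.

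The study holds 24 samples, 12 immunoprecipitated (IP) and 12 input libraries, of which the IP libraries have the peak lists. Ailsa Craig (AC) is the wild type, and Nr is the homozygous Never-ripe ethylene receptor mutant in the same AC background, whose fruit perceives ethylene poorly. Each genotype was sampled with 3 biological replicates at 2 stages, giving 4 groups of 3 libraries. AC MG is mature green fruit at about 39 days post-anthesis, and AC Br+6 is red fruit 6 days after breaker, the stage at which colour first shows. The Nr groups are titled G and O. They are taken as the green stage, also at about 39 days post-anthesis, and the Br+6 stage, at which Nr fruit is orange. The libraries were made from tomato fruit in bulk, so fewer cells with a marked transcript and less marked RNA per cell cannot be told apart. Of 4 genes known from tomato fruit, ASR1 (Solyc04g071610) had a peak in 12 libraries, 2A11 (Solyc07g049140) in 9, E8 (Solyc09g089580) in 4 and the polygalacturonase gene PG2A (Solyc10g080210) in 3. The mRNA lists held 188 to 854 peaks in AC libraries, 233 to 377 in Nr G and 108 to 151 in Nr O. Sequencing depth is unknown, since the lists hold no read totals.

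VI had a peak in 5 of 6 AC libraries and in 0 of 6 Nr libraries. Of the 1945 genes, 1 (0.0514%) had a peak in at least 5 AC and 0 Nr libraries, and this was VI itself. With the genotypes exchanged the count was 0 (0%). The cutoff was set at the calls of VI, the gene selected for its calls, so these counts describe that selection. The calls were 2 of 3 in AC MG, 3 of 3 in AC Br+6, 0 of 3 in Nr G and 0 of 3 in Nr O. The AC library without a VI peak was AC MG replicate 2.

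A peak in some AC library and in no Nr library was common over the lists as a whole. It was found for 1194 genes (61.4%), of which 1053 were called in 1 AC library, 120 in 2, 14 in 3, 6 in 4, 1 in 5 and 0 in 6. Of the 12 genes called in exactly 5 libraries, the number of VI itself, the 11 others had calls in both genotypes. As VI was selected for its calls by genotype, this is a description. In the opposite direction, 445 genes were called in Nr and in no AC library, and the most recurrent of them, 1 gene, reached 4 Nr libraries.

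At the green stage, VI was among 42 genes (2.16%) that had a peak in 2 or 3 AC MG libraries but in 0 of 3 Nr G libraries. At the late stage, it was among 5 genes (0.257%) that had a peak in each of 3 AC Br+6 libraries but in 0 of 3 Nr O libraries. Between the stages of AC it was neither gained nor lost. By the rule of at least 2 of 3 libraries at 1 stage and 0 of 3 at the other, 48 genes (2.47%) were.

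The 9 peaks of VI fell into 2 blocks on chromosome 3. Coordinates count from 1, and the assembly is taken to be SL3.00 because a scaffold name in the circRNA lists carries that label. A circular RNA listed as sense to VI carries the minus strand, so the high-coordinate block is the upstream (5′) one. The upstream block spans chr3:55283016-55283499 (484 bases) and the downstream block chr3:55280603-55281462 (860 bases). Between them lie 1553 bases with no listed peak, and all VI peaks together span 2897 bases. Exon and UTR positions of the blocks were not analysed here, since no annotation of this assembly was used.

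**Figure D1:**
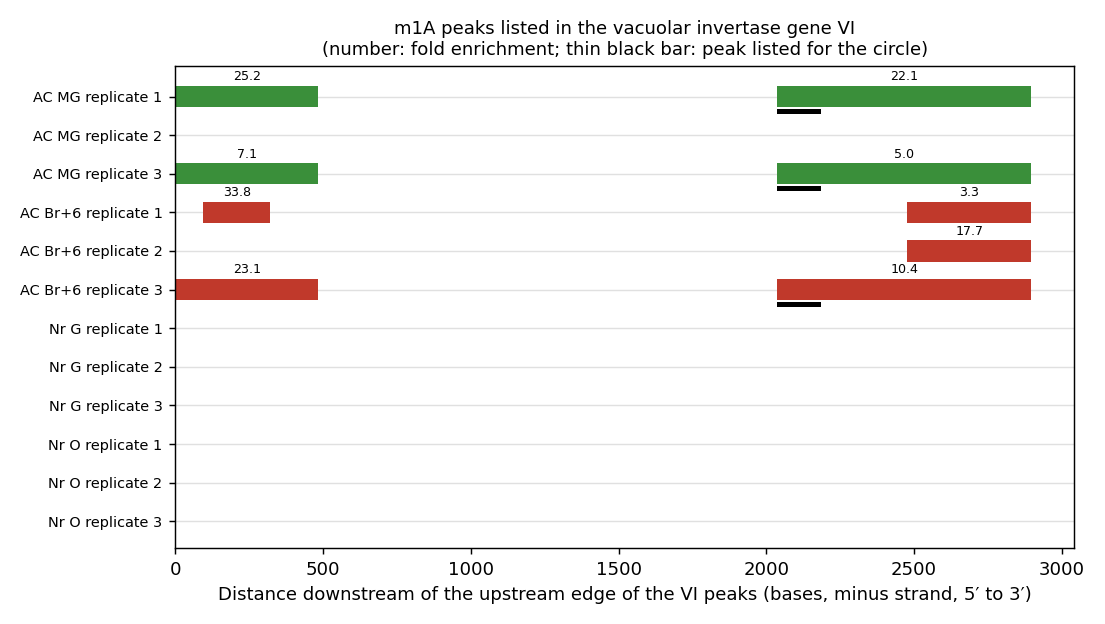
Position of each listed VI peak by library, as distance in bases from the upstream edge of the VI peaks along the minus strand. Bars are peaks, the number above each is the authors' fold enrichment, and thin black bars are the peaks listed for the circular RNA. AC MG replicates 1 and 3 and AC Br+6 replicate 3 have both blocks at full length, AC Br+6 replicates 1 and 2 have shorter peaks, and the other 7 libraries have none.

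The upstream block was listed in 4 libraries. It had the same 484-base form in AC MG replicates 1 and 3 and in AC Br+6 replicate 3. In AC Br+6 replicate 1 the peak was 226 bases long (chr3:55283179-55283404) and lay inside that form, 163 bases in from its low-coordinate edge and 95 bases in from its high-coordinate edge. AC Br+6 replicate 2 had no upstream peak.

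The downstream block was listed in all 5 libraries with a VI call. AC MG replicates 1 and 3 and AC Br+6 replicate 3 had the 860-base form, and AC Br+6 replicates 1 and 2 a 420-base form (chr3:55280603-55281022). All 5 peaks share the low-coordinate edge, the 3′ one on the minus strand. The forms differ by 440 bases at the other edge.

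The 3 libraries with the long forms were the same for both blocks, and they had the longest mRNA lists among the AC libraries, with 688 peaks in AC MG replicate 1, 308 in AC MG replicate 3 and 854 in AC Br+6 replicate 3. The AC libraries with short forms had 188 and 236 peaks, and the one with no VI peak had 220. Long and short forms therefore did not overlap in list length. The part of list length in the form of the peaks was not tested. The forms were not split by stage, as AC Br+6 held both.

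Long peaks are rare in these data. The median length of the 3852 mRNA peaks was 198 bases. Only 14 peaks (0.363%) were at least 860 bases long, of which VI had 3. Peaks longer than 860 bases were listed in AC MG replicate 3 (3 peaks) and AC Br+6 replicate 3 (8 peaks), and in no other library. All peaks of at least 860 bases therefore lay in the libraries with the long VI forms. In AC MG replicate 1 no listed mRNA peak was longer than the VI downstream peak. In AC Br+6 replicate 3, 98.9% of peaks were shorter than it, and in AC MG replicate 3, 98.7%. The 420-base form was also long for its lists, with 95.7% of peaks shorter in AC Br+6 replicate 1 and 96.6% in replicate 2.

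VI also had more than 1 peak in most of its libraries. It had 2 peaks in 4 of 5 libraries with a call (80%). Over all genes, 340 of 3493 combinations of a gene and a library with a call (9.73%) had 2 or more peaks. In the 10 pairs of libraries that both called VI, 10 shared a start or an end of a peak, and 4 (40%) had a peak with both edges identical. Pooled over the 474 genes called in 2 or more libraries, the shares of 6300 pairs were 90.5% and 65.6%. Genes called in more libraries add more pairs to these shares. All 16 pairs of VI peaks within a block overlapped by at least 0.5 of the shorter peak.

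The total length of VI under peaks was compared between the AC stages, the contrast with VI peaks on both sides. It was 1344 bases in AC MG replicate 1, 0 in replicate 2 and 1344 in replicate 3. In AC Br+6 it was 646 bases in replicate 1, 420 in replicate 2 and 1344 in replicate 3. The AC Br+6 values lay between the lowest and the highest AC MG values, so the groups overlapped. The AC MG mean was 896 ± 776 bases (SD, n = 3). The AC Br+6 mean was 803 ± 482 bases (SD, n = 3). The difference, AC Br+6 minus AC MG, was -92.7 ± 527 bases (SE), well within the spread between replicates, and the exact permutation test (two-sided) gave a p of 1. With 20 arrangements the smallest p this design allows is 0.1, so it could not pass at 0.05. All 6 Nr libraries were at 0 bases.

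**Figure D2:**
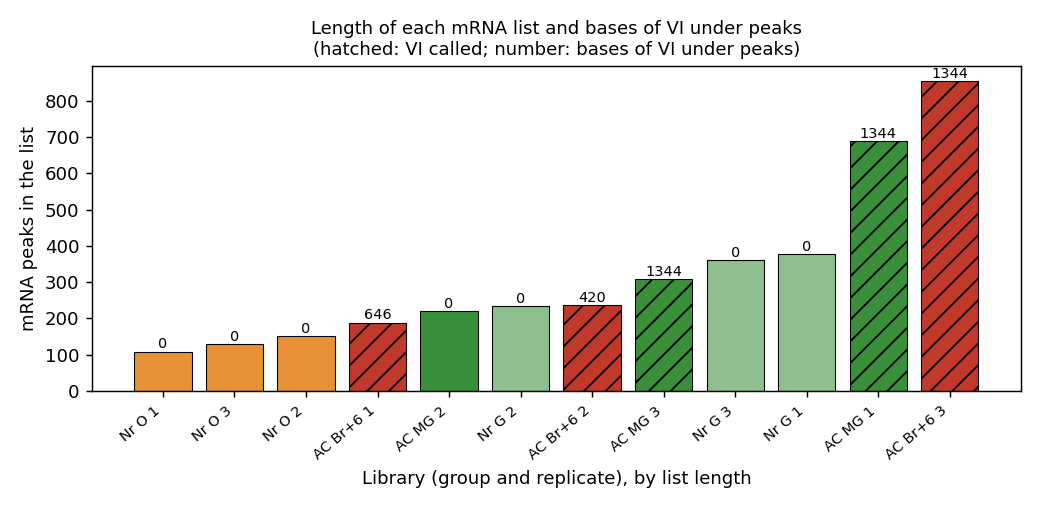
Number of mRNA peaks in each of the 12 lists, ordered by list length, with hatching where VI was called and the bases of VI under peaks above each bar. Nr G replicates 1 and 3, with 377 and 360 peaks and no VI peak, have longer lists than 3 of the 5 AC libraries that hold one.

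List length differed between the groups and is set beside the VI calls here. Nr G replicates 1 and 3 listed 377 and 360 mRNA peaks and Nr G replicate 2 listed 233, all with no VI peak. AC Br+6 replicate 1 called VI in a list of 188 peaks, AC Br+6 replicate 2 in one of 236 and AC MG replicate 3 in one of 308. The Nr O lists, at 108 to 151 peaks, were shorter than every list with a VI peak. For Nr O, the missing call and the short list cannot be told apart. Without the 2 longest lists, AC MG replicate 1 and AC Br+6 replicate 3, VI was called in 3 of 4 AC libraries. With every list shortened to 108 peaks, the length of the shortest, the AC libraries with VI fell from 5 to 2 of 6 when the highest folds were kept and to 1 of 6 when the highest scores were kept. The part of list length in the difference between genotypes was not tested.

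The strength of the VI peaks is given by the fold enrichment and the score of the authors' peak caller. The score is 10 times the negative log10 of the peak's p-value. The values place VI within its own list, and the weakest VI peak is also set beside the lowest values of the Nr lists. They were not tested between lists.

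The upstream peak had a fold enrichment of 25.17 in AC MG replicate 1, 7.14 in AC MG replicate 3, 33.84 in AC Br+6 replicate 1 and 23.1 in AC Br+6 replicate 3. Set beside the median fold of its own list, it was above in 3 libraries and below in AC MG replicate 3. The shares of peaks in the same list with a lower fold were 69.8%, 32.1%, 68.1% and 71.3% in that order. In its list of 188 peaks, AC Br+6 replicate 1 ranked the upstream peak 60th.

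The downstream peak had a fold enrichment of 22.07 in AC MG replicate 1, 5.04 in AC MG replicate 3, 3.26 in AC Br+6 replicate 1, 17.74 in AC Br+6 replicate 2 and 10.37 in AC Br+6 replicate 3. The shares of peaks with a lower fold were 63.7%, 23.1%, 7.98%, 55.1% and 45.2% in that order. It thus ranged from the lower end of a list to well above its median, and stage did not order it.

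Within each of the 4 libraries that listed both blocks, the upstream peak had the higher fold enrichment. The ratio of upstream to downstream fold was 1.14 in AC MG replicate 1, 1.42 in AC MG replicate 3, 10.4 in AC Br+6 replicate 1 and 2.23 in AC Br+6 replicate 3. AC Br+6 replicate 2 listed a downstream peak alone, so it gives no ratio. The scores did not order the blocks alike. AC MG replicate 3 had a score of 88.31 upstream and 158.86 downstream, and AC MG replicate 1 had 3100 at both, a value that 1133 of the 3852 mRNA peaks (29.4%) share. In AC Br+6 replicate 1 the scores were 2541.26 upstream and 17.23 downstream, and in AC Br+6 replicate 3 they were 3100 and 2187.27. The lone downstream peak of AC Br+6 replicate 2 scored 286.84.

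**Figure D3:**
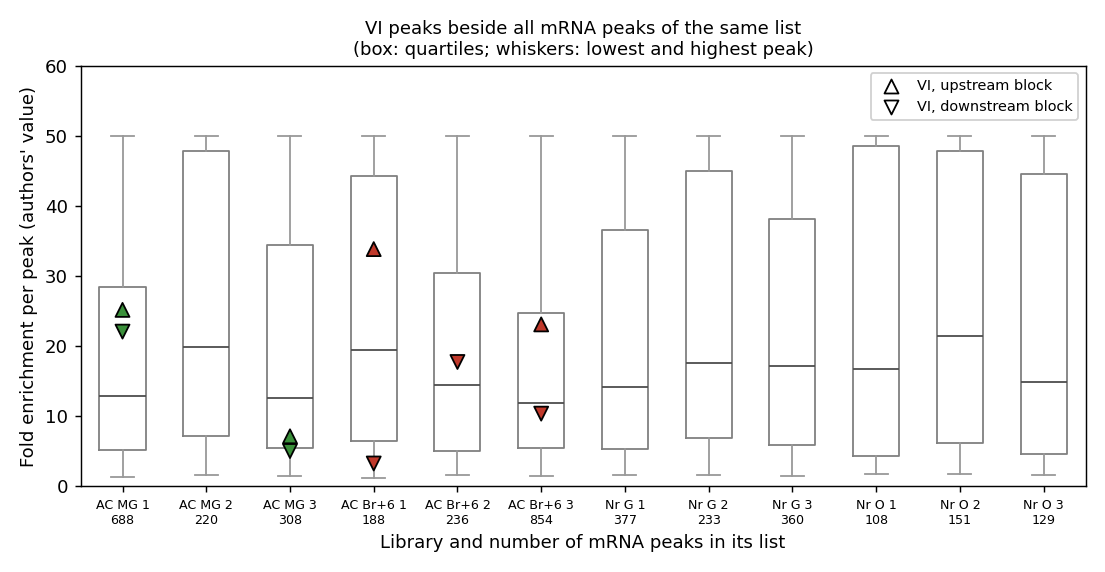
Fold enrichment of VI peaks (triangles pointing up for the upstream block, down for the downstream block) beside the distribution of all mRNA peaks of the same list, with boxes at the quartiles and whiskers at the lowest and highest peak. The VI peaks lie between 3.26 and 33.84 and inside the range of each list, below the highest value of 50.

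The weakest VI peak, downstream in AC Br+6 replicate 1, had a fold of 3.26 and a score of 17.23. The lowest fold in an Nr list ran from 1.46 to 1.71 and the lowest score from 13.31 to 14.86. Folds and scores of different lists are not on a shared scale, as far as the sources used here tell. The lists hold no expression values and the input libraries were not analysed here, so a library without a VI peak says nothing of the level of VI mRNA in it. The part of VI mRNA level in the missing calls was likewise not tested.

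VI peaks also appear in the circRNA lists. A circle sense to VI on chr3:55281315-55281462 (148 bases, minus strand) had a peak in AC MG replicates 1 and 3 and AC Br+6 replicate 3, with fold enrichments of 22.07, 5.04 and 10.37. All 3 carry the peak number, fold and score of the downstream mRNA peak of the same library, cut to the circle's span, so both lists count the same signal. The circle lies at the 5′ end of the 860-base form and outside the 420-base form, with 292 bases between them. Of the 38 circles with a peak, 11 had peaks in AC and in no Nr library, and 3 the reverse. No lncRNA peak overlapped the span of VI.

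The mRNA lists held no other gene with a peak within 69200 bases of VI on chromosome 3. The nearest gene with an mRNA peak on the high-coordinate side was Solyc03g083970, described as a BAG family molecular chaperone regulator, 69200 bases away and called in AC Br+6 replicate 3 with a fold of 49.85. On the other side it was Solyc03g083615, which has no description, 272436 bases away and called in AC MG replicate 1 with a fold of 7.78. Neither neighbour recurred in another library.

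The genes around VI in sugar metabolism were followed through a list of 27 other identifiers, of which 3 had a peak, each in 1 library. The lists name only genes with a peak, so the share of all tomato genes with a peak is not known here. These counts therefore do not set the sugar genes apart from other genes. None of the 5 other invertases (LIN5 to LIN9, the acid invertase relatives of VI) had a peak, and neither did the 2 invertase inhibitors, which bind invertases and block them. Of 4 sucrose synthases, which cleave sucrose reversibly, SUS3 (Solyc07g042550) had a peak in AC Br+6 replicate 3 with a fold of 19.66. Of 4 sucrose phosphate synthases, which catalyse a step of sucrose synthesis, Solyc07g007790 had a peak in Nr G replicate 1 with a fold of 26.61. Of 3 sucrose transporters, Solyc11g017010 had a peak in AC MG replicate 1 with a fold of 15.41. The 2 hexokinases and 4 fructokinases, which phosphorylate the hexoses that invertase releases, and the 3 tonoplast sugar transporters had none. Words in the descriptions added 1 gene, a nucleotide-sugar transporter (Solyc12g095790) called in Nr G replicate 1 with a fold of 5.69, which does not carry sucrose or hexoses by that description. Each of these 4 genes was called in 1 library, as were 1471 of the 1945 genes (75.6%). VI, selected on these lists for its calls by genotype, was called in 5. Identifiers without a description in the lists, such as those of the invertases, were not checked against a reference.

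Over all 1944 other genes, the likeness of calls to those of VI was measured as the Jaccard index over the 12 libraries, the number of libraries that call both genes over the number that call either. The highest index, 0.8, was reached by 3 genes, the next, 0.667, by 1, and 511 genes shared no library with VI. The libraries differ in list length, which these comparisons share.

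E8 (Solyc09g089580), a gene induced by ethylene in ripening tomato fruit and related to dioxygenases, was called in 4 of the 5 libraries of VI, all but AC Br+6 replicate 1. Its highest fold was 33.44, in AC MG replicate 1, and in AC Br+6 replicate 2 its fold was 2.12. Like VI, E8 had peaks in 2 separate places, but in AC MG replicate 1 alone. At the place called in all its libraries, its peak was 532 bases long in AC MG replicate 1. There it was 596 bases long in AC MG replicate 3 and AC Br+6 replicate 3, and 238 in AC Br+6 replicate 2. E8 was thus also longer in the libraries with the long VI forms than in AC Br+6 replicate 2.

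Solyc05g014280 (chromosome 5) was called in all libraries of VI but AC MG replicate 3. Its 7 peaks had folds from 8.21 to 50, the highest in AC Br+6 replicate 1, and in each of its 4 libraries 1 peak ended at base 8090337. Like VI, it had more than 1 peak in most of its libraries, namely AC MG replicate 1 and AC Br+6 replicates 2 and 3. Solyc07g026960 (chromosome 7) had the same libraries as E8. Its 4 peaks had folds from 2.12 to 31.25. Those of AC Br+6 replicates 2 and 3 overlapped and both ended at base 32799491, while that of AC MG replicate 1 began at base 32761032 and that of AC MG replicate 3 at base 32800638. Solyc01g020285 (chromosome 1), at an index of 0.667, shared 4 libraries with VI and had a further call in Nr G replicate 1. Its folds were 6.25 and 7.14 in AC MG replicates 1 and 3, 46.48 and 49.57 in AC Br+6 replicates 2 and 3, and 4.98 in Nr G replicate 1. The peaks of AC MG replicate 1 and Nr G replicate 1 had the same edges, bases 28555145 and 28555230. Those of AC MG replicate 3 and AC Br+6 replicates 2 and 3 lay apart from them and all ended at base 28555009. These 3 genes and E8 have no symbol or description in the lists, so the name E8 rests on the identifier alone.

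**Figure D4:**
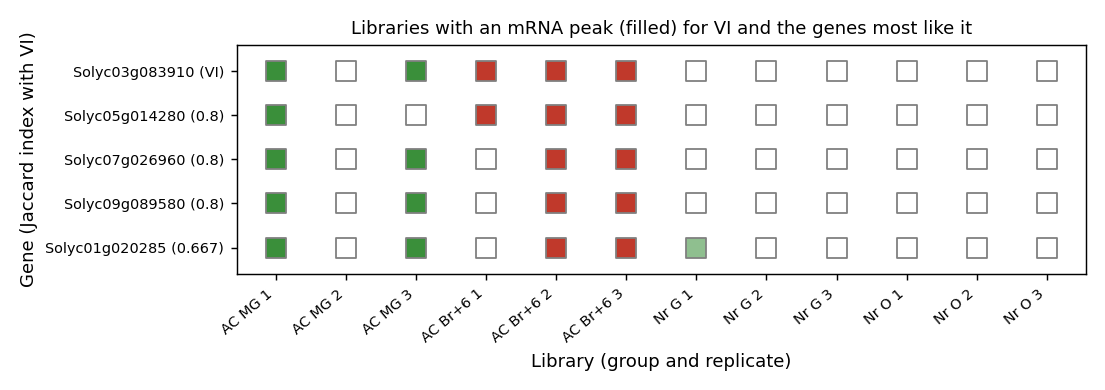
Libraries (horizontal axis) with an mRNA peak, shown as filled squares, for VI and the 4 genes with the highest Jaccard index, which stands in parentheses. VI is filled in 5 AC libraries, 3 genes in 4 of these 5, and Solyc01g020285 in 4 of these 5 and in Nr G replicate 1; AC MG replicate 2 is empty for all.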

How the data were processed

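The data were 36 deposited peak lists, 12 each for mRNA, lncRNA and circRNA, matched to IP libraries through the group and replicate in each list name. Per the submitters' processing notes, cutadapt 1.9.3 and HISAT2 2.0.4 were used. For the peak caller, whose peak names start with MACS, settings and control were not given in the sources used here. Fold enrichment as deposited is a ratio with a highest value of 50. The deposited score is, per the file headers, 10 times the negative log10 of the p-value. The FDR as deposited is a percent and reads 100 for every peak, so it was not used. Depth is unknown, so no intervals are given.

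A gene was called in a library with at least 1 mRNA peak. Deposited starts count from 0 and were raised by 1. A library without a VI peak counted 0 bases. Python 3.11.15, pandas 2.3.3, numpy 2.4.6 and scipy 1.17.1 were used, and call sets, likeness and base counts were tested on simulated lists. P-values cover the spread between these libraries. VI, the sugar list and the rule for named genes (all genes at the 2 highest Jaccard values, the sugar genes with a peak, the nearest neighbours) were chosen with earlier results of these data known. Alternatives were peaks at or above the list median, lists of equal length, assignment by position, each library left out and a replicate block. No sequence is shown, as no sequence reference was used here.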

Additional observations from a re-analysis of the deposited data

How the results depend on the processing

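Assignment by position, the 1 alternative that could add an Nr call, left VI at 0 Nr libraries. The others only remove peaks or libraries, so a count of 0 could not change under them. The number of AC libraries with VI stayed at 5 with peaks given to VI by position in any list, and was 4 with peaks at or above the median fold of their list, where AC MG replicate 3 lost both peaks. It was 2 when every list was shortened to 108 peaks by fold (AC Br+6 replicates 1 and 2) and 1 when shortened by score (AC Br+6 replicate 1). Several lists hold more than 108 peaks at a score of 3100, where fold broke the ties. Leaving out 1 library at a time gave 4 to 5. Without the 2 longest lists, an alternative chosen after seeing the data, it was 3 of 4.

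The bases of VI under peaks, AC Br+6 minus AC MG, changed sign with lists shortened by fold (215, exact permutation p 0.4) or by score (75.3, exact p 1). Shortening left AC MG at 0 bases. Leaving out 1 library at a time gave -541 to 131 bases, positive without AC MG replicate 1, AC MG replicate 3 or AC Br+6 replicate 2, with exact permutation p from 0.6 to 1. With a replicate block the difference was -92.7 and the exact p was 1, where 8 arrangements allow no p below 0.25. Same-numbered libraries of AC MG and AC Br+6 were not shown to be paired, as their deviations over genes correlated at 0.0722, -0.0643 and 0.0516. The overlap needed to call 2 peaks shared, 1 base or 0.5 of the shorter peak, gave 16 of 16 pairs either way.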

Other observations

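Peak numbers rose with position along chromosome 3 in all 12 libraries. In the 4 libraries that listed both VI blocks their numbers were consecutive (757 and 758, 574 and 575, 479 and 480, 812 and 813), so the caller had no numbered peak between the blocks there. In Nr libraries, 3 to 26 numbers were unlisted between the nearest listed peaks on either side of VI. Where those unlisted peaks lie is not recorded in the lists, so whether any fell on VI was not tested.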
